A study of Arabidopsis thaliana with 47 samples.

Results

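The genes described here encode core subunits of the Arabidopsis Polycomb machinery, followed through every group of a study of leaf mesophyll protoplasts that were freed from their walls and cultured until some of them divided. They were taken by locus identifier: CURLY LEAF (CLF, AT2G23380), SWINGER (SWN, AT4G02020), EMBRYONIC FLOWER2 (EMF2, AT5G51230), VERNALIZATION2 (VRN2, AT4G16845), FERTILIZATION-INDEPENDENT ENDOSPERM (FIE, AT3G20740), MSI1 (AT5G58230), LIKE HETEROCHROMATIN PROTEIN1 (LHP1, AT5G17690), BMI1A (AT2G30580) and BMI1B (AT1G06770). The lowest-numbered splice variant stood for each locus, which gave 9 of the 28197 loci listed. All 9 passed the filter on low counts in every comparison.

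Polycomb repressive complex 2 (PRC2) places H3K27me3, the trimethyl mark on histone H3 that keeps developmental genes silent. CLF and SWN are its alternative methyltransferases, EMF2 and VRN2 are alternative zinc finger subunits, and FIE and MSI1 are WD40 proteins found in every form of the complex. LHP1 binds the mark, while BMI1A and BMI1B are RING finger proteins of PRC1, the complex that ubiquitinates histone H2A. In leaves this system holds cells in their differentiated state, and plants that lack both methyltransferases lose organ identity and form callus-like tissue.

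The study compared transcriptomes of cultured protoplasts, of freshly isolated protoplasts (Day 0) and of intact leaves. All plants were Columbia-0, 23 days after sowing, and the leaves were the first to the fifth of the rosette. Protoplasts were embedded in alginate gel and kept in the dark in Gamborg B5 medium with 1 mg/L of the auxin analogue 2,4-D and 176 µg/L of thidiazuron, a compound with cytokinin activity. Cultures were left as controls, were given yucasin, which blocks auxin biosynthesis, or MB-3, an inhibitor of histone acetyltransferases, or were kept without 2,4-D. Replicates 1 to 3 held Day 14 MB-3, Day 14 control, Day 0 and leaf (n = 3 each). Replicates 4 to 8 held Day 6 and Day 4 yucasin, Day 6 and Day 4 MB-3, Day 6, Day 4 and Day 2 control (n = 3 each) and Day 0 (n = 5). Within them, Day 2 and Day 4 cultures were replicates 4 to 6 and Day 6 cultures were replicates 6 to 8. Replicate 6 alone was shared, so Day 6 and the earlier culture days cannot be fully told apart from their replicates. Replicates 9 to 11 held Day 4 without 2,4-D (Day 4 -2,4-D), Day 4 control and Day 0 (n = 3 each). Per the study, few protoplasts divided and not at the same time, and RNA came from whole cultures.

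The 47 libraries held 4.34 to 19.13 M mapped reads (median 8.46 M). In them 3 reads corresponded to 0.152 to 0.667 CPM before scaling (reads of a locus per 1 M reads counted over all loci). All levels are CPM after TMM scaling in edgeR, which assumes that most loci keep their level, done within each of the 3 sets of replicates and compared within a set only. TMM factors were 0.495 to 0.673 at Day 0, against 0.909 to 1.386 in all other libraries. The 6 markers of mesophyll cells summed to 1506 to 4705 CPM at Day 0, against 13450 to 33150 CPM in leaf, and 9 markers of epidermis, trichomes, guard cells and vascular cells summed to 9.18 to 11.5 CPM at Day 0, against 835 to 935 CPM in leaf, with none of either list at 0 in all libraries of these groups. In replicates 1 to 3, 6 libraries (all of leaf, Day 0 replicate 3, Day 14 control replicates 1 and 3) had reads at 28.6 to 82.9% of 1994 loci that were silent elsewhere, against at most 9% in the other 6. Before TMM scaling, the 95th percentile of those loci was at most 2.89 CPM (leaf replicate 2) and at most 0.835 CPM in the others. The lowest member value in replicates 1 to 3 was 3.07 CPM after TMM scaling, so the 2 are not in the same unit. A member is called changed at an adjusted p below 0.01 over all loci tested (edgeR, quasi-likelihood test), and the study's stricter rule also asks for a change above 2 on the log2 scale. In bulk RNA, fewer cells of a type and less RNA per cell cannot be told apart.

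Fresh protoplasts differed from leaf in 6 of the 9 genes, 4 higher and 2 lower, where 58.3% of all loci tested were called, 25% higher and 33.2% lower. For chloroplast genes, the study made no quantitative assessment between leaf and protoplasts, because leaf held other cell types. The part of either marker list in the differences given here was not tested. The 9 genes did not move as a group: SWN was lower with CLF not called, and VRN2 was higher with EMF2, on the lower side, not called. SWN, one of the methyltransferases, had 5.61, 6.96 and 7.58 CPM at Day 0, against 35.4, 31.1 and 25.8 CPM in leaf. All 3 Day 0 libraries were below all leaf libraries, with a mean 0.218 times that of leaf, and the log2 change of -2.20 ± 0.20 (SE) passed with an adjusted p of 9.62e-07 (edgeR). CLF, the other methyltransferase, had 20.1, 8.04 and 9.09 CPM at Day 0, against 12.0, 11.2 and 6.55 CPM in leaf, with overlapping ranges (log2 change 0.34 ± 0.34, adjusted p = 0.381, edgeR).

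Among the zinc finger subunits, VRN2 had 108, 101 and 89.7 CPM at Day 0, against 26.4, 27.5 and 21.4 CPM in leaf. All 3 Day 0 libraries stood above all leaf libraries, and the log2 change was 1.99 ± 0.18 (adjusted p = 7.96e-07, edgeR). EMF2, its relative, had 12.3 to 19.1 CPM at Day 0, against 21.1 to 24.0 CPM in leaf, and did not pass (log2 change -0.53 ± 0.18, adjusted p = 0.0187, edgeR; 0.00227 with DESeq2 and 0.00945 with its size factors). FIE fell by 0.96 ± 0.29 on the log2 scale, with 3.33 to 6.70 CPM at Day 0, against 8.00 to 10.2 CPM in leaf (adjusted p = 0.00932, edgeR); this call was lost without any 1 of the 3 replicates, with the replicate block (adjusted p = 0.0121), with all splice variants summed and with no filter. MSI1 had 29.4 to 35.6 CPM at Day 0, against 18.5 to 26.0 CPM in leaf, and did not pass (log2 change 0.56 ± 0.18, adjusted p = 0.0136; 0.00535 with DESeq2).

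The PRC1-side genes were all higher at Day 0. BMI1A had 70.9, 50.1 and 56.7 CPM at Day 0, against 12.1, 9.67 and 7.08 CPM in leaf. This was the largest change of the 9 (log2 change 2.62 ± 0.22, adjusted p = 5.25e-07, edgeR), and its mean at Day 0 was 6.16 times that of leaf, with no overlap. BMI1B had 46.1, 26.0 and 30.0 CPM at Day 0, against 8.56, 8.37 and 8.13 CPM in leaf (log2 change 2.03 ± 0.26, adjusted p = 1.62e-05, edgeR). Leaf libraries agreed closely and Day 0 replicate 1 stood above the other 2. LHP1 had 38.5, 50.9 and 53.0 CPM at Day 0, against 21.3, 22.3 and 25.6 CPM in leaf (log2 change 1.04 ± 0.19, adjusted p = 0.000266, edgeR). Scaling by total counts in place of TMM lowered the median change of all loci by 1.02 in this comparison, and under it LHP1 was at 0.01 (adjusted p = 0.949), EMF2 passed at -1.57 (adjusted p = 6.28e-06), and CLF (-0.70, adjusted p = 0.0822) and MSI1 (-0.47, adjusted p = 0.0588) lay on the other side of 0, which made 3 genes higher and 3 lower. LHP1 also lost its call without replicate 2 (0.96, adjusted p = 0.0152), while BMI1A, BMI1B, VRN2 and SWN were called under every alternative run.

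In culture the genes that differed between Day 0 and leaf changed in the other direction. At Day 2, 8 of the 9 genes had changed from Day 0 (68.6% of all loci were called, 38.3% higher and 30.3% lower), 3 higher and 5 lower. At Day 4, 7 had changed (79.1% of all loci, 43.9% higher and 35.2% lower), 3 higher and 4 lower, and at Day 6, 8 had changed (81.3% of all loci, 45.4% higher and 35.9% lower), 4 higher and 4 lower. These shares are close to those of all loci, so the number of genes called is no result about the 9, and each gene is described by its direction and size. With total counts the split was 4 higher and 3 lower at Day 2 and 5 higher and 3 lower at both Day 4 and Day 6.

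**Figure D1:**
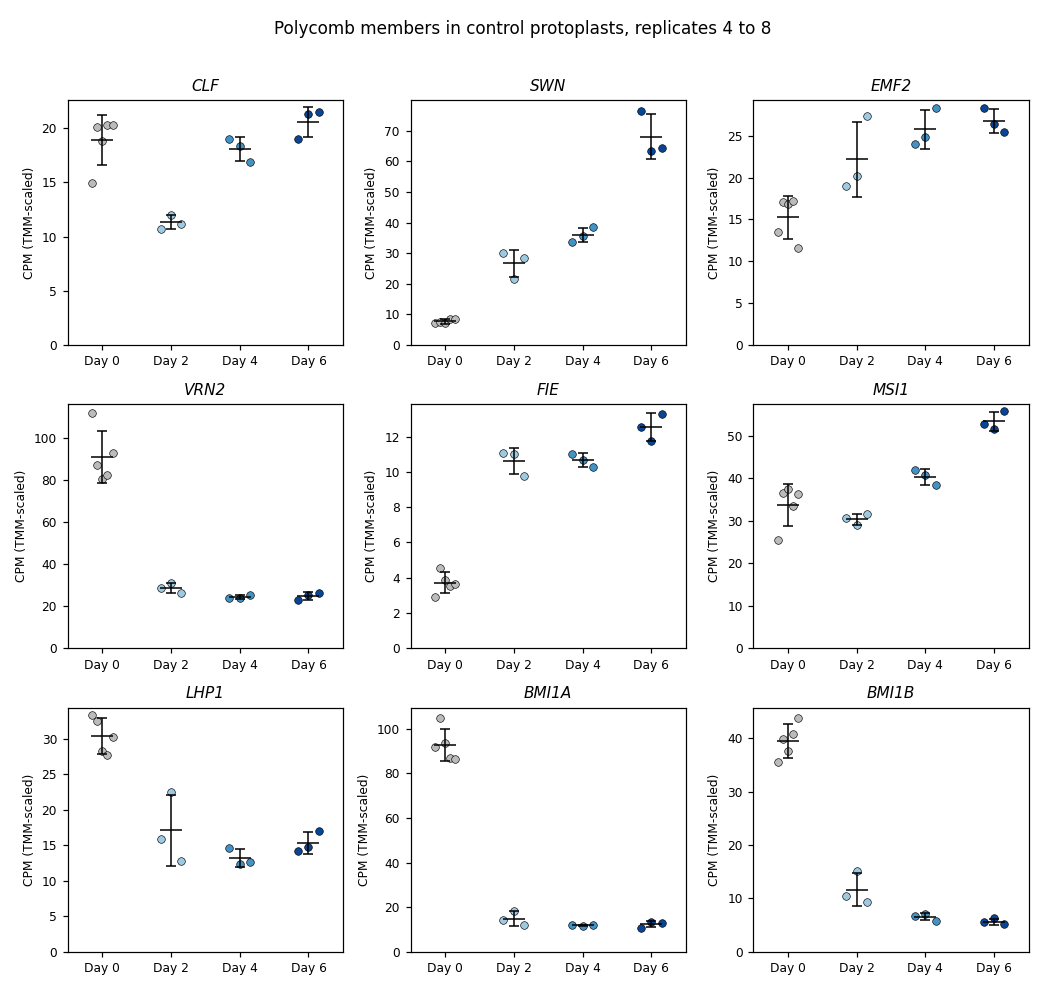
Levels of the 9 Polycomb genes in control protoplasts of replicates 4 to 8, with CPM (TMM-scaled, linear axis from 0) against day of culture. Each point is 1 library (5 at Day 0, 3 at each other day), and the bars give the mean and SD; SWN climbs at each step to 63.5 to 76.5 CPM at Day 6, whereas BMI1A leaves 86.6 to 105 CPM at Day 0 for 11.9 to 18.5 CPM at Day 2 and stays low.

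SWN gave the largest rise. It had 7.00, 7.34, 7.02, 8.53 and 8.32 CPM at Day 0, 30.0, 21.4 and 28.3 CPM at Day 2, 33.8, 35.7 and 38.4 CPM at Day 4 and 76.5, 63.5 and 64.5 CPM at Day 6. No 2 of these groups overlapped, and the order Day 0, Day 2, Day 4, Day 6 held for every library. The Day 6 cultures shared replicate 6 alone with those of Day 2 and Day 4. Relative to Day 0 the log2 changes were 1.80 ± 0.13 at Day 2, 2.22 ± 0.13 at Day 4 and 3.15 ± 0.13 at Day 6 (adjusted p at most 1.76e-11, edgeR), and the mean at Day 6 was 8.92 times that at Day 0. The steps from Day 2 to Day 4 (0.43 ± 0.14, adjusted p = 0.00897) and from Day 4 to Day 6 (0.92 ± 0.13, adjusted p = 1.72e-05) passed as well, though the first of them failed without any 1 of replicates 5, 6, 7 and 8, and across all loci 47.6 and 18.8% passed in these steps. Replicates 7 and 8 held no Day 2 or Day 4 library, so leaving them out changed the shared fit and not the libraries compared in that step.

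CLF did not follow SWN. It had 15 to 20.3 CPM at Day 0 (median 20.2, n = 5), 10.7 to 12.0 CPM at Day 2, 16.9 to 19.0 CPM at Day 4 and 19.0 to 21.5 CPM at Day 6. It fell by 0.75 ± 0.15 on the log2 scale at Day 2 (adjusted p = 5.46e-05, edgeR) and rose by 0.68 ± 0.15 between Day 2 and Day 4 (adjusted p = 0.000641), so that Day 4 (-0.07 ± 0.14) and Day 6 (0.12 ± 0.14) did not pass against Day 0. The placing against Day 0 depends on the scaling: with total counts, which shifted the median of all loci by 0.80 to 1.11 here, CLF stood at 0.05 at Day 2 (adjusted p = 0.778), 0.91 at Day 4 (adjusted p = 1.44e-06) and 1.23 at Day 6 (adjusted p = 7.77e-09).

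EMF2 and FIE were higher than Day 0 at all 3 later days. EMF2 had 11.5 to 17.2 CPM at Day 0 (median 16.9), 19.0 to 27.4 CPM at Day 2, 24.1 to 28.4 CPM at Day 4 and 25.5 to 28.3 CPM at Day 6, with log2 changes of 0.54 ± 0.13, 0.75 ± 0.13 and 0.80 ± 0.13 (adjusted p at most 0.000735, edgeR). Day 4 and Day 6 lay in the same range; the Day 2 call was lost without replicate 6 (0.36, adjusted p = 0.0501). FIE had 2.90 to 4.54 CPM at Day 0 (median 3.65), 9.79 to 11.1 CPM at Day 2, 10.3 to 11.0 CPM at Day 4 and 11.7 to 13.3 CPM at Day 6. Its log2 changes were 1.5 ± 0.13, 1.5 ± 0.13 and 1.74 ± 0.13 (adjusted p at most 2.91e-10), nearly all of it reached by Day 2, and the steps after Day 2 did not pass.

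VRN2 moved against EMF2. It had 80.8 to 112 CPM at Day 0 (median 87.5), 26.1 to 30.9 CPM at Day 2, 23.7 to 25.5 CPM at Day 4 and 22.8 to 26.5 CPM at Day 6. It fell by 1.67 ± 0.12 on the log2 scale at Day 2, 1.90 ± 0.13 at Day 4 and 1.87 ± 0.13 at Day 6 relative to Day 0 (adjusted p at most 2.23e-11, edgeR). The steps between the later days did not pass.

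MSI1, which as a histone chaperone also serves chromatin assembly factor 1, changed late. It had 25.4 to 37.5 CPM at Day 0 (median 36.2), 28.9 to 31.5 CPM at Day 2, 38.3 to 42.0 CPM at Day 4 and 51.6 to 55.9 CPM at Day 6. Day 2 did not pass against Day 0 (-0.16 ± 0.10, adjusted p = 0.154), nor did Day 4 (0.25 ± 0.10, adjusted p = 0.0236; 0.000921 with DESeq2), while Day 6 was higher by 0.65 ± 0.10 (adjusted p = 1.33e-06, edgeR). The steps from Day 2 to Day 4 (0.41 ± 0.11, adjusted p = 0.00296) and from Day 4 to Day 6 (0.40 ± 0.11, adjusted p = 0.00682) passed. The first was lost without replicate 5 (adjusted p = 0.0365) or 6 (0.0101), and the second with the replicate block (adjusted p = 0.0354) or without any 1 of replicates 5 to 8. Under total counts MSI1 was higher than Day 0 already at Day 2 (0.64, adjusted p = 1.32e-05) and at Day 4 (1.23, adjusted p = 1.4e-10).

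BMI1A, BMI1B and LHP1 fell. BMI1A had 91.8, 105, 93.5, 87.0 and 86.6 CPM at Day 0, then 14.1, 18.5 and 11.9 CPM at Day 2, 12.1, 11.7 and 11.8 CPM at Day 4 and 10.7, 13.4 and 13 CPM at Day 6. All cultured libraries were below all Day 0 libraries, with means 0.128 to 0.16 times that of Day 0, and the log2 changes were -2.66 ± 0.13, -2.97 ± 0.14 and -2.90 ± 0.14 (adjusted p at most 3.09e-14, edgeR). BMI1B, its closest relative, had 35.5, 39.8, 37.6, 40.8 and 43.8 CPM at Day 0, 10.4, 15.1 and 9.35 CPM at Day 2, 6.72, 7.11 and 5.86 CPM at Day 4 and 5.50, 6.29 and 5.16 CPM at Day 6. Its log2 changes were -1.79 ± 0.16, -2.59 ± 0.16 and -2.80 ± 0.17 (adjusted p at most 3.39e-10), and the step from Day 2 to Day 4 passed for BMI1B (-0.80 ± 0.17, adjusted p = 0.000424) and not for BMI1A (-0.31 ± 0.14, adjusted p = 0.0662). LHP1 had 27.8 to 33.3 CPM at Day 0 (median 30.2), 12.8 to 22.6 CPM at Day 2, 12.4 to 14.7 CPM at Day 4 and 14.2 to 17.0 CPM at Day 6, with log2 changes of -0.84 ± 0.16, -1.20 ± 0.16 and -0.98 ± 0.16 (adjusted p at most 5.85e-05). Scaling by total counts did not give these calls for LHP1: it stood at -0.06, -0.22 and 0.13 (adjusted p 0.722, 0.182 and 0.409).

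The 6 mesophyll markers were lower in culture than at Day 0, as VRN2, BMI1A, BMI1B and LHP1 were under TMM scaling. They summed to 1952 to 5217 CPM at Day 0, 890 to 1443 CPM at Day 2, 423 to 471 CPM at Day 4 and 363 to 563 CPM at Day 6. The 9 markers of other leaf cells summed to 4.23 to 5.72, 17.9 to 26.7, 49.3 to 59.5 and 75.7 to 84.9 CPM at the same days, with the epidermal gene PDF1 at 0 in all libraries of Day 0, Day 4 and Day 6. Between leaf and Day 0 the directions were opposite: mesophyll markers summed to less at Day 0, while VRN2, BMI1A, BMI1B and LHP1 were higher. The part of either marker list in the changes of the 9 genes was not tested.

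The second set of Day 4 cultures (replicates 9 to 11) were compared with their own Day 0 libraries, and 6 of the 9 genes were called (61.5% of all loci, 34.8% higher and 26.7% lower), 2 higher and 4 lower. SWN had 32.4, 30.4 and 28.0 CPM at Day 4, against 4.56, 4.63 and 7.68 CPM at Day 0 (log2 change 2.44 ± 0.26). FIE had 10.9, 10.7 and 11.4 CPM at Day 4, against 2.21, 2.07 and 1.40 CPM at Day 0 (2.52 ± 0.32). BMI1A had 11.3, 9.67 and 10.1 CPM at Day 4, against 94.3, 72.8 and 73.1 CPM at Day 0 (-2.94 ± 0.27). The groups did not overlap in any of these genes.

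BMI1B (-2.41 ± 0.22), VRN2 (-1.65 ± 0.23) and LHP1 (-0.97 ± 0.21) also fell in these replicates (adjusted p at most 0.00177, edgeR), the call of LHP1 being lost without replicate 10 (adjusted p = 0.0281) or 11 (0.0155). EMF2 had 21.0 to 22.9 CPM at Day 4, against 10.8 to 15.3 CPM at Day 0, and did not pass (0.68 ± 0.26, adjusted p = 0.0354), though it passed without replicate 9 (0.82, adjusted p = 0.00606). CLF had 16.1, 9.78 and 13.7 CPM at Day 4, against 17.5, 20.0 and 16.2 CPM at Day 0, and all 3 Day 4 libraries lay below Day 0 (-0.44 ± 0.23, adjusted p = 0.106). Total counts, which raised the median of all loci by 1.06 here, gave 4 genes higher and 2 lower: EMF2 (1.75, adjusted p = 0.000139) and MSI1 (1.19, adjusted p = 0.000425) passed, VRN2 (-0.59, adjusted p = 0.0344) and LHP1 (0.09, adjusted p = 0.716) did not, and CLF was at 0.63 (adjusted p = 0.0268). The 6 mesophyll markers summed to 286 to 386 CPM at Day 4, against 1419 to 3177 CPM at Day 0, and their part was not tested. In a single fit over both sets, with replicates 9 to 11 minus replicates 4 to 8, none of the 9 genes differed in its change from Day 0 to Day 4 (edgeR; 0 passed, 1 at an unadjusted p below 0.05, no other tool run; 0.0156% of all loci). The widest difference was that of FIE, 0.93 ± 0.26 (approximate 95% interval 0.41 to 1.45, adjusted p = 0.149, edgeR). For CLF the approximate interval ran from -0.89 to -0.01, though its unadjusted p was 0.0564 (adjusted p = 0.474, edgeR). Both intervals are a normal approximation from the SE, which makes them narrower than the test allows.

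At Day 14 (replicates 1 to 3) 7 of the 9 genes differed from Day 0, 3 higher and 4 lower, where 58.5% of all loci were called, 30.7% higher and 27.7% lower. SWN had 47.1, 60.0 and 53.8 CPM at Day 14, against 5.61, 6.96 and 7.58 CPM at Day 0 (log2 change 3.00 ± 0.20, adjusted p = 7.9e-08, edgeR), and its mean at Day 14 was 7.98 times that at Day 0. FIE had 13 to 15.6 CPM at Day 14, against 3.33 to 6.70 CPM at Day 0 (1.59 ± 0.28, adjusted p = 0.000221), and EMF2 had 23.4 to 26.1 CPM at Day 14, against 12.3 to 19.1 CPM at Day 0 (0.64 ± 0.18, adjusted p = 0.00615), a call lost without any 1 of the 3 replicates, with the replicate block (adjusted p = 0.0115) and with no filter. BMI1A had 9.13, 11.7 and 11.5 CPM at Day 14, against 70.9, 50.1 and 56.7 CPM at Day 0 (-2.45 ± 0.22, adjusted p = 6.13e-07), and BMI1B had 5.69, 7.19 and 6.36 CPM at Day 14, against 46.1, 26.0 and 30.0 CPM at Day 0 (-2.40 ± 0.26, adjusted p = 3.26e-06). For both genes all Day 14 libraries were below all Day 0 libraries.

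VRN2 (-1.76 ± 0.18, adjusted p = 1.67e-06) and LHP1 (-0.89 ± 0.18, adjusted p = 0.000761) were lower at Day 14 too, while CLF (0.41 ± 0.33) and MSI1 (0.01 ± 0.18) did not pass. Total counts, which raised the median of all loci by 1.30, turned LHP1 round to 0.41 (adjusted p = 0.0666) and brought VRN2 to -0.46 (adjusted p = 0.0469), while CLF (1.72, adjusted p = 0.000443) and MSI1 (1.31, adjusted p = 7.33e-05) then passed, which made 5 genes higher and 2 lower. LHP1 also lost its call without replicate 2 (adjusted p = 0.0342) or 3 (0.0277). With the 6 libraries that had reads at silent loci left out, which left 1 Day 14 control library assumed to vary like the others, 4 genes passed (SWN, VRN2, BMI1A and BMI1B), with EMF2 at 0.87 (adjusted p = 0.0291), FIE at 1.56 (0.0111) and LHP1 at -0.78 (0.051). The 6 mesophyll markers summed to 177 to 261 CPM at Day 14, against 1506 to 4705 CPM at Day 0, and their part was not tested.

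Set against leaf rather than Day 0, Day 14 cultures differed in 1 of the 9 genes, where 37.8% of all loci were called. SWN, with 47.1, 60.0 and 53.8 CPM at Day 14, against 35.4, 31.1 and 25.8 CPM in leaf, was higher by 0.80 ± 0.18 (adjusted p = 0.00186, edgeR), a call that was lost without replicate 2 (adjusted p = 0.0587) or replicate 3 (0.042). BMI1A had 9.13 to 11.7 CPM at Day 14, against 7.08 to 12.1 CPM in leaf, VRN2 had 26.7 to 33.3 CPM, against 21.4 to 27.5 CPM, and LHP1 had 22.7 to 30.3 CPM, against 21.3 to 25.6 CPM, all with overlapping ranges. For these genes the Day 0 libraries were the ones that stood apart. EMF2 overlapped as well. The other 4 genes did not overlap leaf and did not pass: CLF had 13.4 to 19.5 CPM at Day 14, against 6.55 to 12.0 CPM in leaf (0.75 ± 0.32, adjusted p = 0.066), FIE had 13 to 15.6 CPM, against 8.00 to 10.2 CPM (0.62 ± 0.25, adjusted p = 0.0517), BMI1B had 5.69 to 7.19 CPM, against 8.13 to 8.56 CPM (-0.37 ± 0.26, adjusted p = 0.253), and MSI1 had 32.9 to 34.3 CPM, against 18.5 to 26.0 CPM (0.57 ± 0.18, adjusted p = 0.0159; 0.00213 with DESeq2). The share of all loci without overlap was not counted, so the number of such genes is no result about the 9. At an unadjusted p below 0.05 there were 4 genes, and the median over the 9 genes was 0.23, against -0.02 over all loci. This comparison was added after values had been seen, and all 3 leaf libraries were among those with reads at silent loci. Leaf also held other cell types, and their part was not tested.

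**Figure D2:**
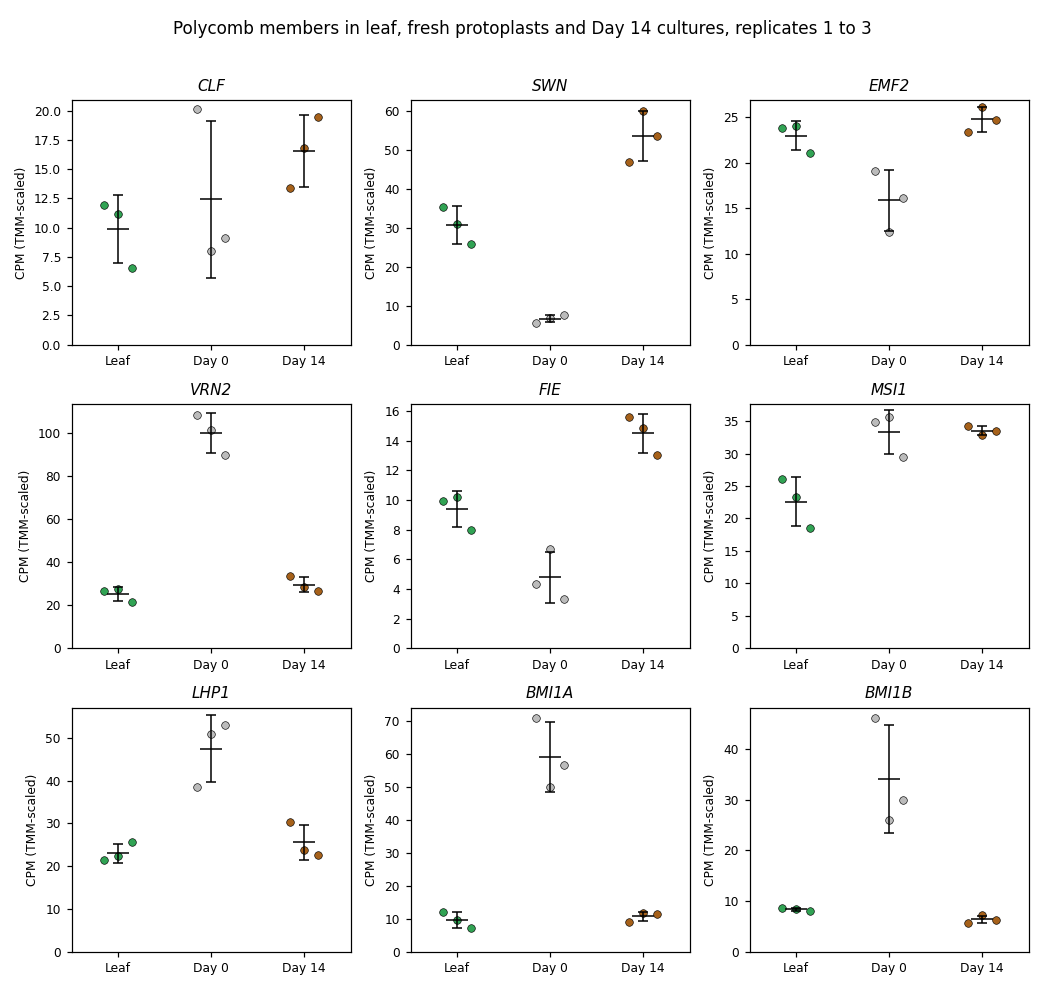
Levels of the 9 genes in intact leaf, fresh protoplasts (Day 0) and Day 14 control cultures of replicates 1 to 3, with CPM (TMM-scaled, linear axis from 0), 1 point per library and bars for mean and SD (n = 3 each). BMI1A stands at 50.1 to 70.9 CPM at Day 0 and at or below 12.1 CPM in leaf and at Day 14, while SWN shows the opposite dip at Day 0.

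The order of the 9 genes by level changed as well. Per kilobase of transcript, VRN2 was the most abundant at Day 0 in replicates 4 to 8 (51.1 ± 7.04 CPM per kb, mean ± SD, n = 5), before BMI1A (44.3 ± 3.51), from which it did not differ beyond the spread, and SWN (2.61 ± 0.249) and FIE (2.37 ± 0.381) were the least. At Day 6 MSI1 (32.8 ± 1.37, n = 3) and SWN (23.3 ± 2.47) led, VRN2 was at 14.0 ± 1.05, and BMI1A (5.92 ± 0.70), CLF (5.96 ± 0.401) and BMI1B (2.85 ± 0.292) were the lowest. BMI1A and CLF did not differ beyond their spread at Day 6, nor did SWN and FIE at Day 0. In leaf the 9 genes ranged from 14.1 CPM per kb for VRN2 to 2.86 for CLF.

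Ratios within a library do not depend on the scaling between libraries, so they were taken for the 3 pairs of alternative subunits. The log2 ratio of CLF over SWN reads (with 0.5 added to each count) was 1.29 ± 0.15 at Day 0 in replicates 4 to 8 (SD, n = 5), -1.22 ± 0.34 at Day 2, -0.99 ± 0.18 at Day 4 and -1.72 ± 0.25 at Day 6 (n = 3 each). CLF reads thus outnumbered SWN reads in all 5 Day 0 libraries and SWN reads outnumbered CLF reads in all 9 later ones, and each later day differed from Day 0 with p = 0.0357, the smallest that an exact two-sided permutation test of 3 against 5 libraries can give. The same held for EMF2 over VRN2: -2.58 ± 0.40 at Day 0, -0.38 ± 0.39 at Day 2, 0.08 ± 0.07 at Day 4 and 0.11 ± 0.19 at Day 6 (exact permutation p = 0.0357 each). These p-values are raw, and 9 such tests were made over the 3 pairs.

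BMI1A over BMI1B changed less. Its log2 ratio was 1.23 ± 0.18 at Day 0, 0.36 ± 0.07 at Day 2, 0.85 ± 0.15 at Day 4 and 1.13 ± 0.19 at Day 6. Day 2 was lower than Day 0 by 0.87 (exact permutation p = 0.0357), whereas Day 4 (difference -0.38, p = 0.0714) and Day 6 (difference -0.10, p = 0.393, exact permutation tests) overlapped Day 0. Adjusted over the 9 tests, the 7 smallest p-values became 0.0459, and those of Day 4 and Day 6 for BMI1A over BMI1B became 0.0803 and 0.393 (exact permutation tests, Benjamini-Hochberg).

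In the other replicates Day 0 stood apart in the first 2 ratios as well. CLF over SWN was -1.67 ± 0.27 in leaf, 0.76 ± 0.92 at Day 0 and -1.71 ± 0.21 at Day 14 in replicates 1 to 3, where Day 0 replicate 1 (1.82) stood above the other 2 (0.20 and 0.26). In replicates 9 to 11 it was -1.23 ± 0.35 at Day 4 and 1.70 ± 0.55 at Day 0. EMF2 over VRN2 was -0.12 ± 0.09 in leaf, -2.66 ± 0.31 at Day 0 and -0.25 ± 0.23 at Day 14, and in replicates 9 to 11 it was -0.33 ± 0.22 at Day 4 and -2.68 ± 0.24 at Day 0. Leaf and Day 14 ranges overlapped in both ratios, and no test is given for 3 against 3 libraries, which cannot go below 0.1. BMI1A over BMI1B was 0.17 ± 0.35 in leaf, 0.82 ± 0.18 at Day 0 and 0.74 ± 0.10 at Day 14, with the leaf libraries below both other groups.

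**Figure D3:**
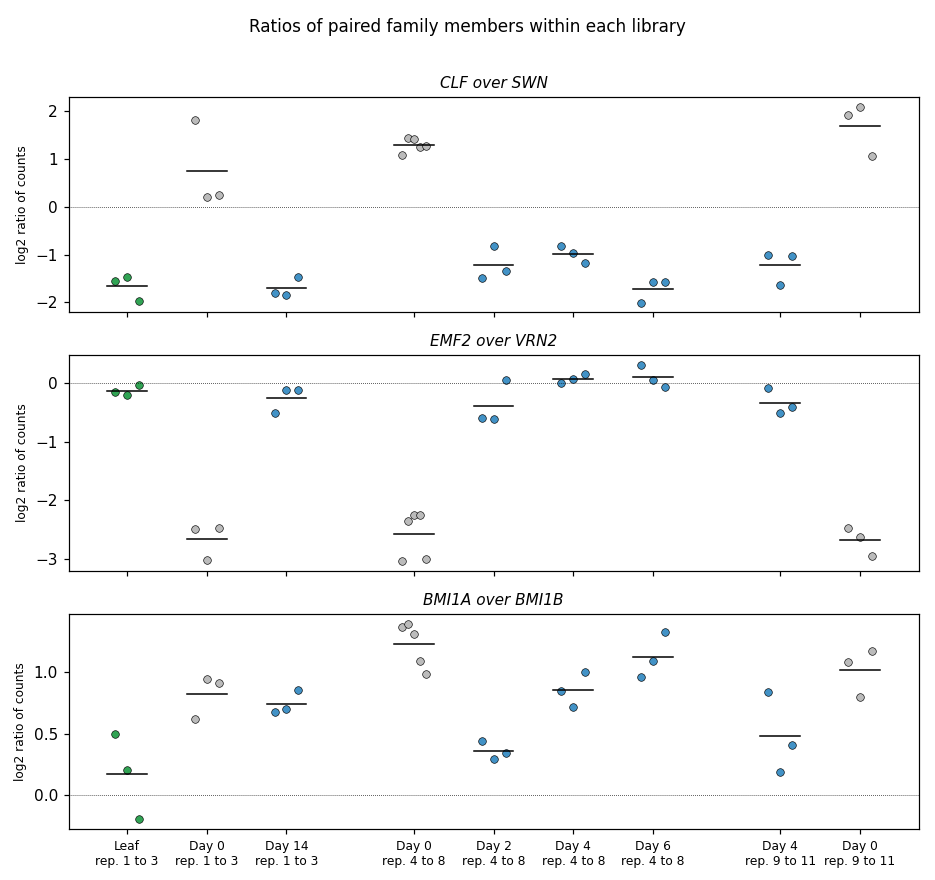
Log2 ratio of raw counts (0.5 added) of CLF over SWN, EMF2 over VRN2 and BMI1A over BMI1B in each leaf, Day 0 and control library, with 1 point per library and a line at the group mean, in 3 blocks of replicates. CLF over SWN is above 0 in every Day 0 library and below 0 in every other one, and EMF2 over VRN2 is at most -2.25 at Day 0 and at least -0.61 elsewhere.

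Yucasin was used to ask what auxin made by the cells contributes. At Day 6, 3 of the 9 genes were lower than in the control and none was higher (47.3% of all loci were called, 24.7% higher and 22.6% lower). The share called is not above that of all loci, so the count is no result about the 9, and each gene is described singly. SWN had 34.9, 37.3 and 34.7 CPM in Day 6 yucasin cultures, against 76.5, 63.5 and 64.5 CPM in Day 6 control cultures. The groups did not overlap, and the yucasin libraries lay within the range of the Day 4 control (33.8 to 38.4 CPM). The log2 change was -0.94 ± 0.13 (adjusted p = 2.82e-06, edgeR). CLF had 14.1, 10.7 and 11.5 CPM with yucasin, against 19.0, 21.3 and 21.5 CPM in the control (-0.77 ± 0.16, adjusted p = 0.000203; 0.012 without replicate 7). MSI1 had 35.7, 35.6 and 37.2 CPM with yucasin, against 52.9, 51.6 and 55.9 CPM in the control (-0.56 ± 0.11, adjusted p = 0.000153).

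The other 6 genes did not pass at Day 6: EMF2 (-0.24 ± 0.14), FIE (-0.23 ± 0.13), VRN2 (0.26 ± 0.13), LHP1 (0.03 ± 0.18), BMI1A (0.13 ± 0.15) and BMI1B (0.27 ± 0.19). The ranges of EMF2 and FIE lay below the control and that of VRN2 above it. Scaling by total counts lowered the median of all loci by 0.48 and called 5 genes, with EMF2 at -0.72 (adjusted p = 0.00055) and FIE at -0.71 (adjusted p = 7.22e-05) added, and VRN2 then stood at -0.23. Within libraries, EMF2 over VRN2 was -0.39 ± 0.20 with yucasin, against 0.11 ± 0.19 in the control, and CLF over SWN was -1.56 ± 0.25 with yucasin, against -1.72 ± 0.25 in the control.

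At Day 4 CLF alone passed with yucasin (13.4% of all loci were called), a count that is no result about the 9 genes. It had 9.44, 12.2 and 15 CPM in Day 4 yucasin cultures, against 19.0, 18.4 and 16.9 CPM in the control, with no overlap (-0.56 ± 0.15, adjusted p = 0.00986, edgeR). This call was lost without any 1 of replicates 4, 5, 7 and 8, with no filter (adjusted p = 0.0119) and with splice variants summed (0.0125). Replicates 7 and 8 held no Day 4 library, so leaving them out changed the shared fit and not the libraries compared. SWN had 35.4, 31.1 and 39.5 CPM with yucasin, against 33.8, 35.7 and 38.4 CPM in the control (-0.03 ± 0.13, adjusted p = 0.92), and MSI1 33.4 to 37.5 CPM, against 38.3 to 42.0 CPM (-0.17 ± 0.11, adjusted p = 0.302). The test of the yucasin effect at Day 6 minus that at Day 4 passed for SWN (-0.91 ± 0.19, adjusted p = 0.00143, edgeR; 12.2% of all loci), with adjusted p 0.0102 to 0.0125 without replicate 4, 6 or 8. It did not pass for CLF (-0.20 ± 0.22, adjusted p = 0.535) or MSI1 (-0.40 ± 0.16, adjusted p = 0.0701), so their effects are not shown to differ between the days. Day 6 and Day 4 cultures shared replicate 6 alone, so day and replicate cannot be fully told apart here. Total counts called MSI1 (-0.73, adjusted p = 0.00375) and FIE (-0.70, adjusted p = 0.00874) beside SWN in this test.

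**Figure D4:**
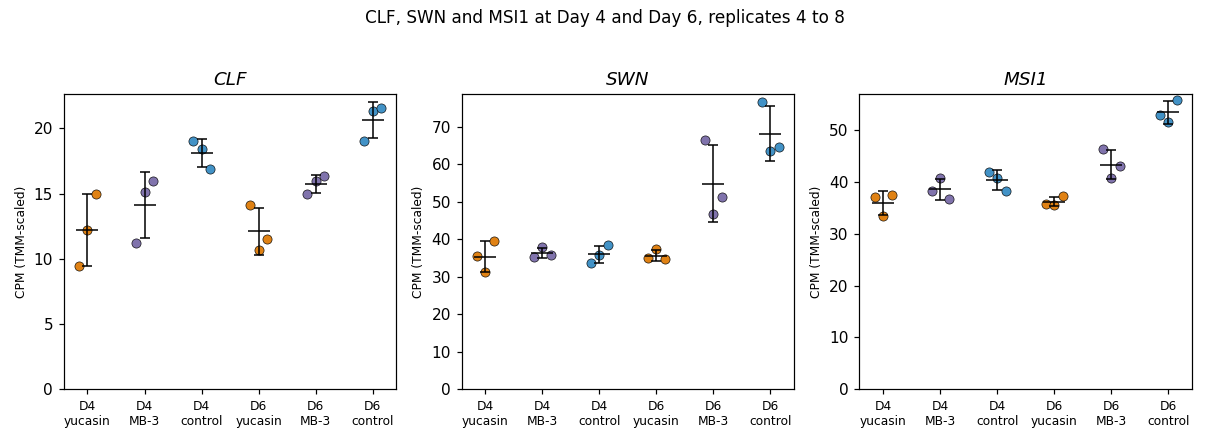
CLF, SWN and MSI1 in yucasin, MB-3 and control cultures at Day 4 (D4) and Day 6 (D6) of replicates 4 to 8, in CPM (TMM-scaled, linear axis from 0), 1 point per library with mean and SD (n = 3 each). SWN is at 34.7 to 37.3 CPM in Day 6 yucasin libraries and at 63.5 to 76.5 CPM in the Day 6 control, while at Day 4 the 3 conditions overlap.

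The 9 markers of other leaf cells did not move as a group. They summed to 131 to 162 CPM in Day 6 yucasin cultures, against 75.7 to 84.9 CPM in the Day 6 control. At Day 4 they summed to 76.4 to 82.0 CPM with yucasin, against 49.3 to 59.5 CPM in the control. Of the 5 tested, 3 were called higher and 2 lower at Day 6, and 2 higher and 1 lower at Day 4. Of all loci, 24.7% were higher and 22.6% lower at Day 6, and 6.8% higher and 6.63% lower at Day 4. PDF1 was at 0 in all of these groups, and APL, a phloem gene, with yucasin at Day 4. The 6 mesophyll markers summed to 305 to 489 CPM in Day 6 yucasin cultures, against 363 to 563 CPM in the control. Of these 6, 2 were called higher and 1 lower, with a median log2 change of 1.05. The part of either marker list in the lower levels of SWN, CLF and MSI1 was not tested.

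MB-3 left all 9 genes short of the threshold on each day. At Day 4 none passed (edgeR; 1 at an unadjusted p below 0.05, 0 with DESeq2; 3.06% of all loci passed), and CLF was the furthest, with 11.2, 15.1 and 16.0 CPM with MB-3, against 19.0, 18.4 and 16.9 CPM in the control (-0.36 ± 0.15, adjusted p = 0.163). At Day 6 none passed (edgeR; 3 at an unadjusted p below 0.05, 1 with DESeq2; 16.8% of all loci passed). CLF had 15, 15.9 and 16.3 CPM with MB-3, against 19.0, 21.3 and 21.5 CPM in the control (-0.39 ± 0.15, adjusted p = 0.061). MSI1 had 46.4, 40.7 and 43.1 CPM with MB-3, against 52.9, 51.6 and 55.9 CPM in the control (-0.30 ± 0.11, adjusted p = 0.0439; 0.000509 with DESeq2). BMI1B had 3.54, 4.57 and 5.02 CPM with MB-3, against 5.50, 6.29 and 5.16 CPM in the control (-0.34 ± 0.19, adjusted p = 0.204). These 3 genes had all MB-3 libraries below the control, whereas SWN overlapped, with 66.5, 46.7 and 51.3 CPM with MB-3, against 76.5, 63.5 and 64.5 CPM in the control (-0.32 ± 0.13, adjusted p = 0.0756).

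At Day 14 again none passed with MB-3 (edgeR; 1 at an unadjusted p below 0.05, 0 with DESeq2; 10.3% of all loci passed), and 6 of the 9 genes had ranges that did not overlap, 5 above the control and 1 below. SWN had 70.9, 78.5 and 75.8 CPM with MB-3, against 47.1, 60.0 and 53.8 CPM in the Day 14 control (0.48 ± 0.17, adjusted p = 0.0622). EMF2 had 30.7, 32.0 and 32.5 CPM with MB-3, against 23.4, 26.1 and 24.7 CPM (0.36 ± 0.17, adjusted p = 0.148), and CLF had 25.7, 20.7 and 22.2 CPM, against 13.4, 16.8 and 19.5 CPM (0.46 ± 0.31, adjusted p = 0.303). BMI1B had 3.07 to 5.6 CPM with MB-3, against 5.69 to 7.19 CPM (-0.51 ± 0.26, adjusted p = 0.18). MSI1 (34.6 to 44.7 CPM with MB-3, against 32.9 to 34.3 CPM) and BMI1A (12.0 to 12.7 CPM, against 9.13 to 11.7 CPM) were the other genes without overlap. The share of all loci without overlap was not counted here or at Day 6, so these numbers are no result about the 9. BMI1A over BMI1B was 1.5 ± 0.41 with MB-3, against 0.74 ± 0.10 in the control.

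A fit over both sets of replicates, added after these values had been seen, tested the MB-3 effect at Day 14 minus that at Day 6. SWN passed (0.79 ± 0.20, adjusted p = 0.005, edgeR; 9.78% of all loci passed), CLF (0.83 ± 0.30, adjusted p = 0.0484) and MSI1 (0.55 ± 0.18, adjusted p = 0.029) did not. The days came from different sets of replicates, so day and set cannot be told apart. Between Day 6 and Day 4, within replicates 4 to 8, the MB-3 effect differed in none of the 9 genes (edgeR, 0 at an unadjusted p below 0.05, 0 with DESeq2, 1.34% of all loci). Cultures of these days shared replicate 6 alone. Other leaf cell markers summed to 30.6 to 49.96 CPM in Day 6 MB-3 cultures, against 75.7 to 84.9 CPM in the Day 6 control. Of the 5 tested, 2 were called higher and 2 lower, where 9.54% of all loci were higher and 7.25% lower. The part of these markers was not tested.

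Leaving 2,4-D out of the medium brought none of the 9 genes past the threshold at Day 4 (edgeR; 2 at an unadjusted p below 0.05, 0 with DESeq2; 5.53% of all loci passed). SWN came closest, with 21.3, 14.1 and 19.0 CPM without 2,4-D, against 32.4, 30.4 and 28.0 CPM in the control. All 3 libraries without 2,4-D were below the control (-0.74 ± 0.24, adjusted p = 0.0496). BMI1A had 10.4, 20.0 and 19.7 CPM without 2,4-D, against 11.3, 9.67 and 10.1 CPM in the control (0.68 ± 0.26, adjusted p = 0.0779), with replicate 9 within the control range and the other 2 above it. Without replicate 9 both passed (SWN -0.90, adjusted p = 0.0053; BMI1A 0.95, adjusted p = 0.000645), but 33.7% of all loci then passed, against 0.219% without replicate 10 and 0.0668% without replicate 11, so these 2 calls among 9 genes are no result about the 9. VRN2 had 26.3, 39.5 and 49.3 CPM without 2,4-D, against 24.2, 29.9 and 28.0 CPM (0.49 ± 0.23, adjusted p = 0.134), again with replicate 9 within the control range. The 6 mesophyll markers summed to 395 to 617 CPM without 2,4-D, against 286 to 386 CPM in the control, and the markers of other leaf cells to 32.9 to 54.8 CPM, against 36.7 to 57.7 CPM, with PDF1 at 0 in both groups and APL and ATHB8 at 0 without 2,4-D. Their part was not tested.

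**Figure D5:**
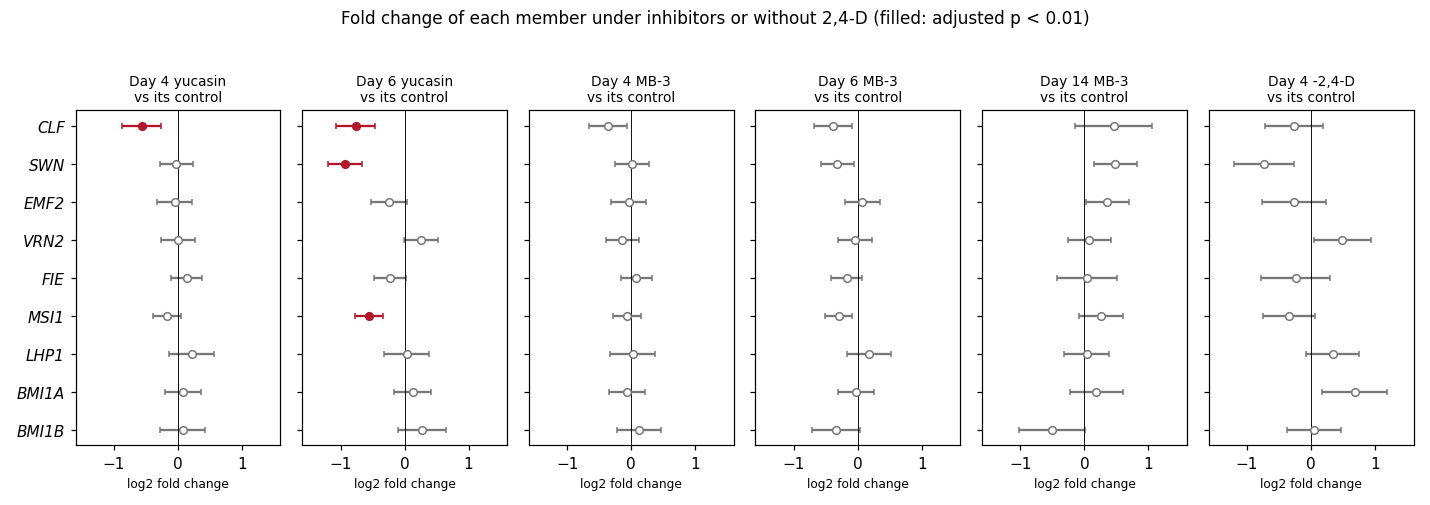
Log2 fold change of each of the 9 genes (rows) in 6 comparisons of a treated with its control group (panels). Bars are approximate 95% intervals, a normal approximation from the edgeR SE, and are narrower than the test allows. Filled points have an adjusted p below 0.01. CLF with yucasin at Day 4, and CLF, SWN and MSI1 with yucasin at Day 6, are the filled points, between -0.94 and -0.56.

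Other genes of the system were read from lists of further Polycomb proteins and their opponents. Of 9 other genes of PRC2 and the VEL family, 7 were tested, and at Day 6 relative to Day 0, 5 were higher and 1 was lower (45.4% of all loci were higher and 35.9% lower), with a median of 2.56, against 0.34 over all loci. MSI5 (4.34 ± 0.26), MSI4 (3.27 ± 0.13) and MSI2 (2.85 ± 0.21), relatives of MSI1, had the largest changes (adjusted p at most 6.43e-12, edgeR). VEL1, a PHD finger partner of PRC2 named after its value was seen, was the gene that fell (-1.27 ± 0.12). MSI2 and MSI3 are close copies, so their counts are uncertain.

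Of 15 other genes of PRC1 or associated with Polycomb proteins, 14 were tested, and 7 were higher and 7 lower at Day 6 relative to Day 0 (median 0.01), where 81.3% of all loci were called. TRB2, a telomere repeat binding protein, fell by 3.25 ± 0.14 on the log2 scale, ALP1, a transposase-derived protein that opposes Polycomb silencing, rose (2.43 ± 0.16), and BLI, a partner of CLF, fell by 2.13 ± 0.09. Of 9 demethylases and antagonists tested, 1 was higher and 5 were lower (45.4% of all loci were higher and 35.9% lower), with a median of -0.46, against 0.34 over all loci. The demethylase genes JMJ13 (-4.33 ± 0.25) and ELF6 (-2.04 ± 0.15) fell, and ULT1, an antagonist of CLF, rose (3.30 ± 0.37). At Day 0 relative to leaf, 3 of these 9 were higher and 3 lower (25% of all loci were higher and 33.2% lower), among them ULT1 (-3.73 ± 0.74), JMJ13 (2.89 ± 0.31) and JMJ30 (-2.54 ± 0.38).

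With yucasin at Day 6, 1 of the 7 other PRC2 genes tested was higher and 2 were lower than in the control (median -0.06, against 0.01 over all loci), where 24.7% of all loci were higher and 22.6% lower. MEA, the methyltransferase of the PRC2 of the endosperm, had 77, 123 and 69 reads with yucasin (9.52, 17.7 and 8.74 CPM), against 2, 3 and 2 reads in the Day 6 control (0.149, 0.212 and 0.150 CPM). MEA passed with an adjusted p of 3.09e-10 (edgeR), and no fold is given against so few reads. MSI2 (-1.44 ± 0.22) and MSI5 (-1.23 ± 0.21) were the genes that fell. At Day 4 MEA had 8.33, 7.59 and 6.29 CPM with yucasin, against 0.755, 1.68 and 0.489 CPM in the control (2.87 ± 0.36, adjusted p = 3.42e-06).

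Of 17 textbook targets of Polycomb repression, 7 in replicates 1 to 3, 2 in replicates 4 to 8 and 1 in replicates 9 to 11 had enough reads to be tested. At Day 14, 2 of 7 were higher than at Day 0, where 30.7% of all loci were higher, so the count is no result about these targets. WUS, a regulator of stem cells, had 68, 91 and 238 reads at Day 14, against 0 reads in all 3 Day 0 libraries, and replicate 2, with 91 reads, was the Day 14 control library with few reads at silent loci. LEC1, an embryonic regulator, had 40, 153 and 137 reads at Day 14, against 3, 6 and 5 reads at Day 0. With MB-3 at Day 14, 1 of the 7 targets was higher and 1 lower than in the control, with a median of 0.79. Of all loci, 4.64% were higher and 5.71% lower there. WUS was the 1 called lower, with 3, 4 and 6 reads, against 68, 91 and 238 reads in the control. Control replicates 1 and 3 were among the libraries with reads at silent loci. No fold or p-value is given for WUS or LEC1 against so few reads.

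Across all 47 libraries, after the mean of each set of replicates was subtracted, the 9 genes were compared with each other. SWN correlated with FIE (Pearson r = 0.889) and EMF2 (0.835) and inversely with BMI1B (-0.954), VRN2 (-0.903) and BMI1A (-0.90), and VRN2 correlated with BMI1A (0.974). Within the 33 culture libraries alone, SWN was at 0.343 with FIE, 0.548 with EMF2, -0.688 with BMI1B, -0.439 with VRN2 and -0.389 with BMI1A. Its highest values there were with MSI1 (0.859) and CLF (0.648). In these libraries CLF and MSI1 were at 0.73, VRN2 and BMI1A at 0.685, and BMI1A and BMI1B at 0.279, against 0.941 for BMI1A and BMI1B over all 47. These values describe log2(CPM + 1) over libraries that share treatments and sets, and no test is attached.

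Among 14372 loci with a mean of at least 5 CPM, the nearest other locus to MSI1 was PCNA2, a replication clamp (r = 0.852 over 47 libraries and 0.892 over the 33 culture libraries). SWN was nearest to CYP71, a cyclophilin with WD40 repeats (0.97 and 0.821), BMI1A to WIT1, a nuclear envelope protein (0.989 and 0.726), and BMI1B to FRS7, a FAR1-related factor (0.977 and 0.802). The nearest loci to CLF (AT5G38690, 0.773 and 0.805), EMF2 (AT1G14820, 0.898 and 0.731), VRN2 (AT1G04960, 0.975 and 0.781), FIE (AT5G39850, 0.952 and 0.436) and LHP1 (AT1G07480, 0.932 and 0.696) are given by locus alone.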

How the data were processed

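Stranded mRNA libraries were mapped by the authors with Bowtie 0.12.9 to TAIR10, after bcl2fastq, per the labels and the submitters' processing notes, and the deposited values are raw counts per splice variant. The study's methods speak of uniquely mapped reads; how reads over several splice variants were counted is not given in the sources used here. Counts of the lowest-numbered variant of each locus were fitted with edgeR 4.0.16 (quasi-likelihood test, filterByExpr, TMM; R 4.3.3), separately for replicates 1 to 3, 4 to 8 and 9 to 11, with all groups of a set in 1 fit. Adjusted p is Benjamini-Hochberg over all loci tested, with a threshold of 0.01. Errors of log2 changes are SE, from the change and its F statistic. Differences between sets came from joint fits. The fit was tested on counts simulated from Day 4 and Day 6 libraries with few changed loci. That test does not cover TMM scaling where many loci differ, as they do against Day 0. Alternatives were DESeq2 1.42.0, its size factors, total-count scaling, no filter, a replicate block, summed variants, nuclear loci alone and leaving out each replicate; leaving out libraries with reads at over 25% of silent loci was chosen after seeing the data. Libraries held 4.34 to 19.13 M mapped reads. For callus counts the methods define biological replicates as protoplasts from different plant sets in separate experiments. For RNA they give 3 biological replicates per time point without repeating that definition, so p-values measure the spread between these samples.

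All 9 genes are named, with per-library values where they passed the stricter rule or an inhibitor or medium comparison, and up to 3 called genes of each other list with the largest changes. The members and lists were chosen with earlier results of these data known. Same-numbered libraries deviated together (every correlation over 0.1) in Day 4 yucasin (0.128 to 0.343), Day 4 MB-3 (0.171 to 0.395), Day 6 MB-3 (0.192 to 0.296) and Day 4 -2,4-D (0.24 to 0.531) against their controls; the shared number comes from the labels.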

Additional observations from a re-analysis of the deposited data

Results flagged for a closer look

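CLF had 15 CPM in replicate 4 at Day 0, the lowest of 5 libraries, the others lying between 18.8 and 20.3 CPM. The gap to the next library was 0.715 of the whole range, and of 12 genes and ratios looked at in this way it was the only one past the limit; chance alone marks about 1 in 20 groups.

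The yucasin effect on SWN at Day 6 minus that at Day 4 was -0.91 ± 0.19 on the log2 scale (adjusted p = 0.00143, edgeR), with all 3 Day 6 yucasin libraries below their control and overlapping ranges at Day 4. The cultures of the days shared replicate 6 alone, so day and replicate cannot be fully told apart. The MB-3 effect on SWN at Day 14 minus that at Day 6 was 0.79 ± 0.20 (adjusted p = 0.005, edgeR), with all 3 Day 14 MB-3 libraries above their control; day and set of replicates cannot be told apart.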

How the results depend on the processing

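Counts of the 9 genes called stayed within 1.5 times under most alternatives. DESeq2 called 2 at Day 14 relative to leaf and 1 with MB-3 at Day 6. Total-count scaling called 2 at Day 14 relative to leaf, 5 with yucasin at Day 6 and 3 for the yucasin effect at Day 6 minus Day 4. With no filter, and with splice variants summed, 0 were called with yucasin at Day 4. The replicate block called 1 at Day 6 relative to Day 4 and changed no call in the 4 comparisons whose numbers paired the samples; elsewhere it lost FIE at Day 0 relative to leaf and EMF2 at Day 14 relative to Day 0. Without the libraries with reads at silent loci, 4 were called at Day 14 relative to Day 0. Leaving out 1 replicate gave 0 to 1 at Day 14 relative to leaf, 2 to 4 at Day 4 relative to Day 2, 1 to 2 at Day 6 relative to Day 4, 0 to 1 with yucasin at Day 4, 0 to 1 for the yucasin difference and 0 to 2 without 2,4-D.

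Leaving out 1 replicate moved CLF over SWN within -0.73 to -0.30 with yucasin at Day 4, -0.12 to 0.35 with yucasin at Day 6, 0.24 to 0.66 without 2,4-D and -0.31 to 0.13 at Day 14 relative to leaf, EMF2 over VRN2 within -0.69 to -0.32 with yucasin at Day 6, and BMI1A over BMI1B within 0.27 to 0.97 without 2,4-D. Total-count scaling turned round LHP1 at Day 14 (0.41), at Day 6 (0.13) and in replicates 9 to 11 (0.087), CLF at Day 2 (0.047) and Day 4 (0.91), and MSI1 at Day 2 (0.64), all relative to Day 0. It also moved MSI1 (-0.47) and CLF (-0.70) below 0 at Day 0 relative to leaf, neither called under either scaling. The cause was not tested. Depth limits FIE most, at 1.40 to 2.21 CPM at Day 0 in replicates 9 to 11.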
